A study of Mus musculus with 2 samples.

Results

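Enzymes of disulfide bond formation in the endoplasmic reticulum (ER) were compared between 2 RNA sequencing libraries of cells that the labels call mouse neonatal cardiomyocytes, the contractile cells of the newborn heart. The cells of the first library had been transfected with an antagomir, a chemically modified antisense oligonucleotide, to knock down the piRNA FERPIR. Those of the second, the control, had received a negative control in its place. Both samples also carry PBS as a treatment label and heart as the tissue, and no strain or exact age was given. The enzymes were 8 members of the protein disulfide isomerase (PDI) family and both ERO1 oxidases, taken by gene name: P4hb, Pdia3, Pdia4, Pdia5, Pdia6, Txndc5, Erp29, Erp44, Ero1l and Ero1lb. All 10 had a row in the table, among 10982 genes. FERPIR itself was not among them, so its knockdown could not be checked.

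Secreted and membrane proteins receive their disulfide bonds in the ER. In this pathway PDI enzymes exchange disulfides with the folding protein through paired cysteines, and ERO1 oxidases reoxidise PDI by passing its electrons to oxygen, which yields hydrogen peroxide. Many genes of the pathway are induced when unfolded proteins build up in the ER, and in the heart the pathway serves cells that secrete matrix as well as muscle cells, whose channels and receptors are themselves disulfide-bonded.

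Values were FPKM, which corrects fragment numbers for transcript length and for the size of the library. Each group had 1 library, which allows no test, SD or standard error, and every difference below describes these 2 libraries. The read depth is unknown. Ratios are log2 of (antagomir FPKM + 1) over (control FPKM + 1), and folds are on the same scale unless called a plain ratio. Fewer cells of a type and less RNA per cell cannot be told apart in such bulk RNA. Of the cardiomyocyte markers 2 of 12 had a row: Tnnt2, with 8.19 FPKM in the antagomir and 1.48 FPKM in the control library, and Tnnc1, with 18.9 and 4.39 FPKM. Defining markers such as Myh6, Ryr2 and Actn2 were not among the genes listed, so the cell type label could not be checked against them. Fibroblast markers had rows for 6 of 9 genes, with a summed level of 341 FPKM in the antagomir and 548 FPKM in the control library. Most of this was Col3a1, with 249 and 358 FPKM. Pdgfra, with 1.66 and 1.19 FPKM, was higher in the antagomir library, and the others were lower. Smooth muscle markers had rows for 3 of 4, with a summed level of 885 FPKM in the antagomir and 1325 FPKM in the control library. Of these Acta2 had 845 FPKM in the antagomir and 1304 FPKM in the control library, while Tagln, with 37.8 and 18.2 FPKM, and Cnn1, with 2.91 and 1.79 FPKM, were higher in the antagomir library. Of the macrophage markers 1 of 7 had a row, Lyz2, with 4.44 and 3.28 FPKM. None of the 6 endothelial markers and none of the 5 markers of plasma cells or pancreas had one. No marker with a row was listed at 0. The 2 cardiomyocyte markers summed to 27.1 FPKM in the antagomir and 5.86 FPKM in the control library. In both libraries this was below the fibroblast and the smooth muscle sums, which cover other numbers of genes. The part of these cell types in the differences below was not tested.

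The oxidative folding enzymes had lower values in the antagomir library for 8 of the 10 genes. Their FPKM summed to 652 in the antagomir library and 1310 in the control library, a plain ratio of 0.498, and their share of all FPKM in the table was 0.208% and 0.443%. The 8 genes were each at least 1.5-fold lower, and 4 of them, Ero1l, Pdia4, Ero1lb and Pdia3, at least 2-fold lower. Of these Ero1lb reached 1 FPKM in the control library alone. Among all 10201 genes that reached 1 FPKM in either library, 13.4% were at least 1.5-fold lower and 3.79% at least 2-fold lower. Txndc5 was at least 1.5-fold higher and no member was 2-fold higher, where 10.8% and 2.88% of all genes passed these limits. The median log2 ratio was -0.80 over the 10 members and -0.05 over all genes.

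**Figure D1:**
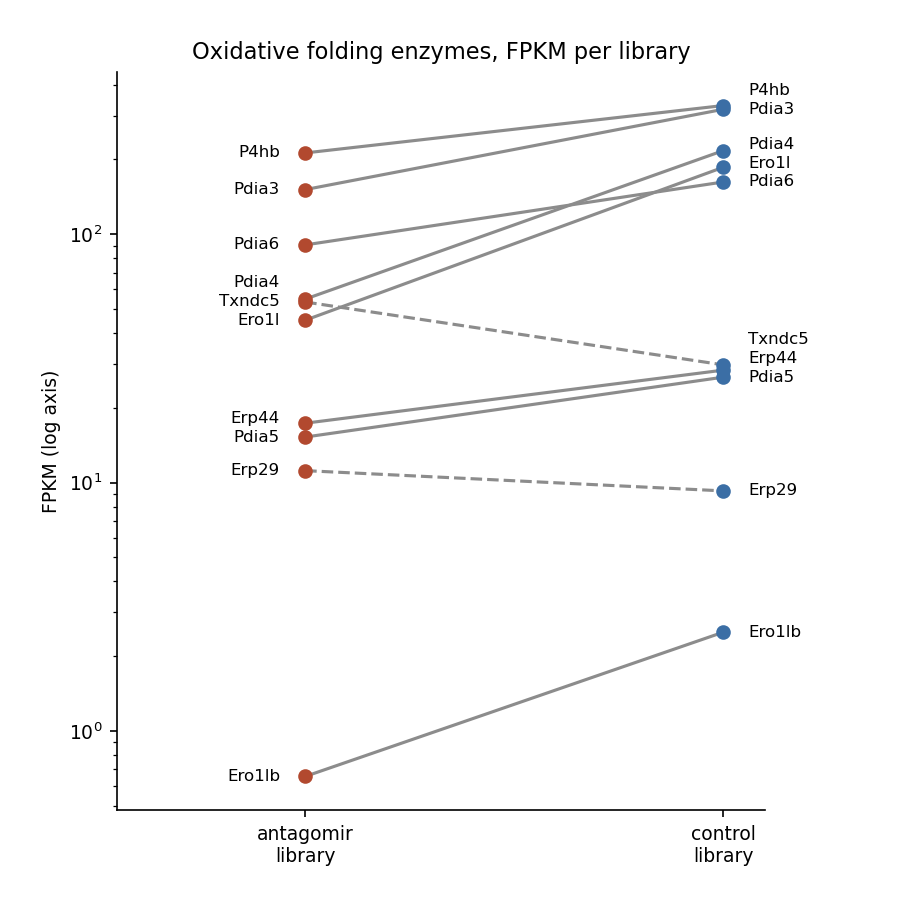
FPKM of each of the 10 enzymes (vertical log axis) in the antagomir library on the left and the control library on the right, 1 point per gene and library, joined by a line that is dashed where the antagomir value is the higher. P4hb heads both libraries, at 212 and 330 FPKM, while the lines of Pdia4 and Ero1l are the steepest among the abundant enzymes and only Txndc5 and Erp29 run the other way.

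Of the 10 enzymes the oxidase gene Ero1l had the lowest log2 ratio. Ero1l, on chromosome 14 from 45283087 to 45318771 on the minus strand of build GRCm38, encodes the widely expressed ERO1 alpha oxidase, which is also known as a hypoxia-induced gene and as a target of the stress factor CHOP. It had 45.1 FPKM in the antagomir and 186 FPKM in the control library, 4.06-fold lower. Of the 10201 genes ranked from the lowest log2 ratio it was number 29. Ero1lb, on chromosome 13 from 12565874 to 12611396 on the plus strand, encodes ERO1 beta, an oxidase best known from secretory tissues such as the pancreas. It had 0.66 FPKM in the antagomir and 2.50 FPKM in the control library, and it entered the count through its control value alone. Its log2 ratio was -1.08 with 1 FPKM added to both values and -1.91 with 0.01 added. As plain ratios the control values were 4.13 times the antagomir values for Ero1l and 3.81 times for Ero1lb. Ero1l therefore remained the main oxidase transcript in both libraries, at 68.7 times the FPKM of Ero1lb in the antagomir library and 74.4 times in the control library.

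Among the PDI enzymes with active cysteine pairs, Pdia4 differed most. It encodes ERp72, on chromosome 6 from 47796141 to 47813430 on the minus strand, and had 54.8 FPKM in the antagomir and 217 FPKM in the control library, 3.91-fold lower. It was number 36 from the lowest of all genes, close to Ero1l. Pdia3 encodes ERp57, which acts on glycoproteins held by calnexin and calreticulin, and lies on chromosome 2 from 121413775 to 121438687 on the plus strand. It had 151 FPKM in the antagomir and 318 FPKM in the control library, 2.10-fold lower.

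P4hb encodes PDI itself, which ERO1 oxidises directly and which is also the beta subunit of collagen prolyl 4-hydroxylase. The gene lies on chromosome 11 from 120560298 to 120573253 on the minus strand. It had 212 FPKM in the antagomir and 330 FPKM in the control library, 1.55-fold lower, just past the 1.5-fold limit and short of it, at a log2 ratio of -0.58, when ratios were centred on the median of all genes. Pdia6 encodes P5, a partner of the chaperone BiP, on chromosome 12 from 17266545 to 17284770 on the plus strand. It had 90.5 FPKM in the antagomir and 162 FPKM in the control library, 1.78-fold lower. Pdia5, which has been linked to activation of the stress sensor ATF6 in human cells, lies on chromosome 16 from 35397313 to 35490873 on the minus strand. It had 15.3 FPKM in the antagomir and 26.6 FPKM in the control library, 1.70-fold lower. The abundant enzymes P4hb, Pdia3 and Pdia6 thus kept the same order of levels in both libraries, whereas Pdia4 and Ero1l stood above Pdia6 in the control library and below it in the antagomir library.

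Txndc5 ran the other way. It encodes ERp46, a PDI with known roles in collagen folding in mouse cardiac fibroblasts, and lies on chromosome 13 from 38500079 to 38528824 on the minus strand. It had 53.4 FPKM in the antagomir and 29.8 FPKM in the control library, 1.77-fold higher, and it was number 536 from the highest log2 ratio. Its exons share 11.9% of their bases with Bmp6 and Gm31834 on the opposite strand. Neither of these was among the genes listed, and since strand use in the counting is not given in the sources used here, their part in the value was not tested. Its log2 ratio was 0.82, and it lay between 0.75 and 0.87 under the 8 other settings tried.

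The remaining members work without a standard pair of active cysteines. Erp44 encodes a retrieval factor that cycles to the early Golgi and brings back ERO1 oxidases and unfinished proteins through mixed disulfides. It lies on chromosome 4 from 48193323 to 48279558 on the minus strand and had 17.3 FPKM in the antagomir and 28.4 FPKM in the control library, 1.60-fold lower. Erp29 encodes an escort of secretory proteins, on chromosome 5 from 121428590 to 121452506 on the minus strand. It had 11.2 FPKM in the antagomir and 9.26 FPKM in the control library, a log2 ratio of 0.25. Of its annotated exon bases 24.4% overlap exons of Naa25 on the opposite strand, which had 4.72 FPKM in the antagomir and 8.55 FPKM in the control library, so the Erp29 level is uncertain. Shorter overlaps of 14 to 50 exon bases, with Catsper2, Mir704 and Atp6v1c2, touch Pdia3, Pdia4 and Pdia6.

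**Figure D2:**
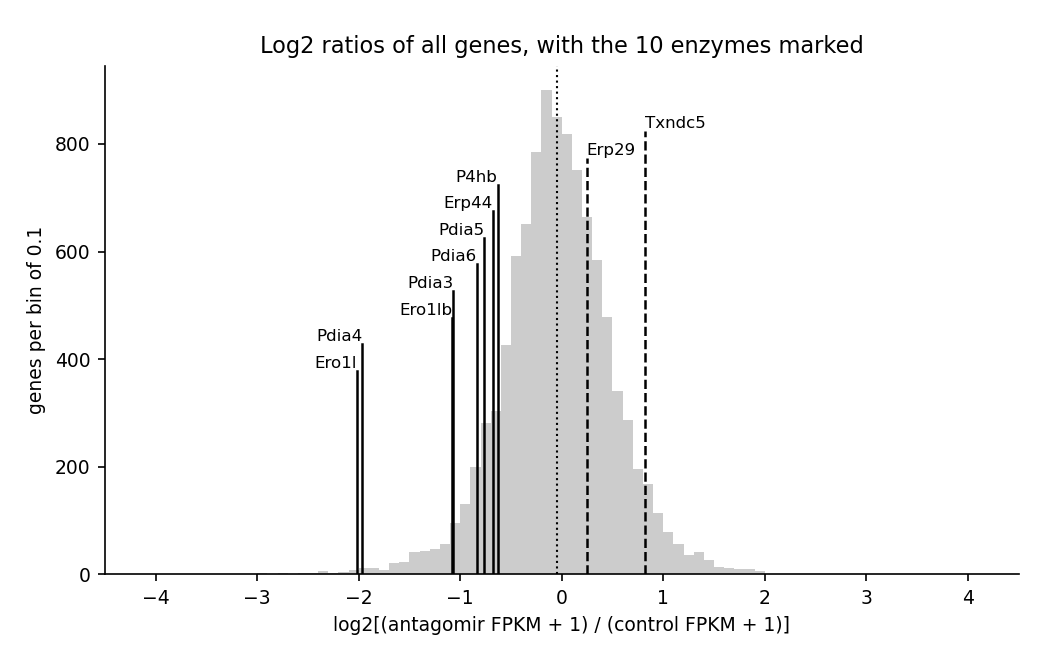
Histogram of the log2 ratio of antagomir over control (horizontal axis, FPKM + 1) for the 10201 genes that reached 1 FPKM, in bins of 0.1, with the 10 enzymes as labelled lines, solid below 0 and dashed above; line heights serve the labels only, and the dotted line is the median of all genes, -0.05. Ero1l and Pdia4, near -2, lie in the lower tail, and 8 enzymes lie below the lower quartile of all genes, -0.36.

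Because the members differed unequally, the makeup of the enzymes differed between the libraries. P4hb took 32.6% of the summed FPKM of the 10 genes in the antagomir and 25.2% in the control library. Pdia4 took 8.40% in the antagomir and 16.6% in the control library, and Ero1l 6.91% and 14.2%. Txndc5 took 8.19% in the antagomir and 2.27% in the control library, so that its level was close to that of Pdia4 in the antagomir library and far below it in the control. The 8 PDI genes together had 606 FPKM in the antagomir and 1121 FPKM in the control library. Both ERO1 genes together had 45.7 FPKM in the antagomir and 188 FPKM in the control library. The PDI transcripts thus outnumbered the oxidase transcripts, per length, 13.3 to 1 in the antagomir library and 5.95 to 1 in the control library.

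**Figure D3:**
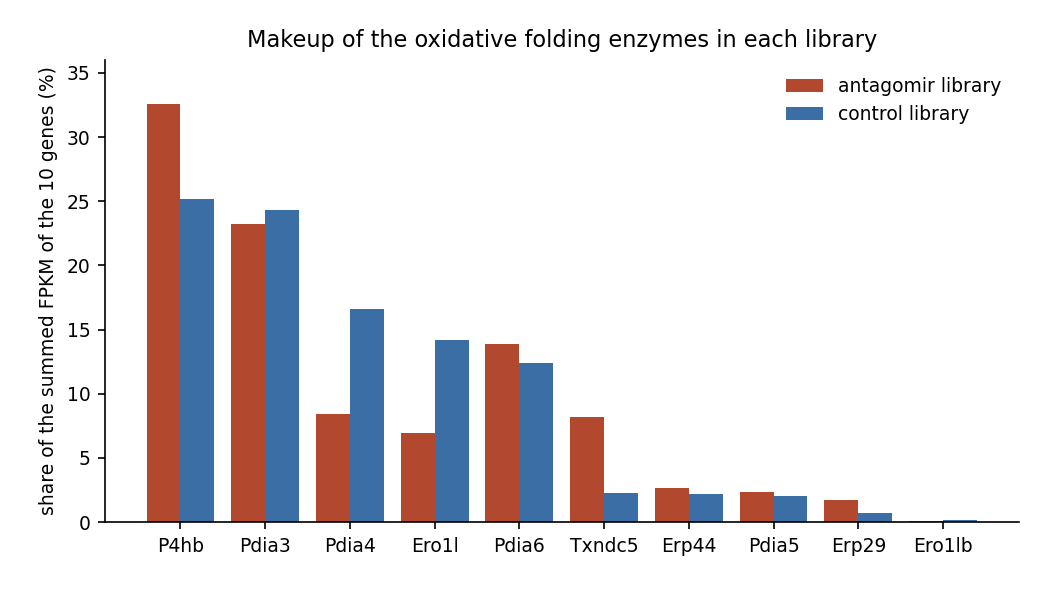
Share of the summed FPKM of the 10 enzymes taken by each gene (vertical axis, percent), antagomir library as the left bar and control library as the right bar of each pair. Pdia4 and Ero1l take smaller shares in the antagomir library, 8.40% and 6.91%, than in the control library, 16.6% and 14.2%, and P4hb and Txndc5 take larger ones.

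Transcript length moved with the log2 ratio across genes, longer ones being lower in the antagomir library. Spearman's rho was -0.30 over genes that share both libraries and are not independent. From their longest annotated transcripts, 1809 to 5204 bases, the trend fitted over length and GC content gave the members log2 ratios between -0.20 and 0.08. With the trend removed the members' median was -0.88, Ero1l stood at -1.90, Pdia4 at -1.97 and Txndc5 at 0.83.

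Promoters of the members were searched for stress response motifs in RefSeq windows of build GRCm38.p6, from 250 bases before to 50 bases after each annotated start, on both strands. Windows existed for 9 members, all but Erp29, 12 windows in all, with Ero1l and Ero1lb listed as Ero1a and Ero1b. The ER stress response element, ERSE, is the site through which ATF6 and XBP1 act with NF-Y, and its letters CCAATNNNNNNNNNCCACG were found in Pdia6 and Ero1lb. They were in 0.119% of all 32851 windows. The stretches around both matches are shown because only the windows of these members held an exact match to the element, which is in capitals. It reads on the gene's own strand in Pdia6 and on the opposite strand in Ero1lb. The match lies 183 bases before the start in Ero1lb, against 80 bases in Pdia6.
Pdia6, chr12:17266456-17266544, plus strand: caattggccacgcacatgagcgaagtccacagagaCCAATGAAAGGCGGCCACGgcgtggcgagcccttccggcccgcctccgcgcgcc
Ero1lb, chr13:12565647-12565735, plus strand: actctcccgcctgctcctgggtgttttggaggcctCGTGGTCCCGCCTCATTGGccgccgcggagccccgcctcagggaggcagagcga
These 2 genes were 1.78-fold and 2.11-fold lower. The windows of Pdia4 and Pdia3, 3.91-fold and 2.10-fold lower, held none of the motifs searched. As plain ratios of control over antagomir, the values were 1.79 for Pdia6, 3.81 for Ero1lb, 3.96 for Pdia4 and 2.105 for Pdia3. Any link between the motifs and the differences was not tested. The search took exact letters only, so sites that differ from them or lie outside the windows were not seen.

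Txndc5, the gene that was higher, had in a window of an alternative start the UPRE core TGACGTGG, found in 0.676% of all windows, which includes the CRE-like core TGACGT, found in 7.51%. Another of its windows held the ATF4 or CHOP composite TGATGNAA, found in 3.97%. The hypoxia element core ACGTG, which overlaps the UPRE core, was in windows of 6 of the 9 members searched, Ero1l, Erp44, P4hb, Pdia5, Pdia6 and Txndc5. It was in 19.6% of all windows, a share per window, whereas members are counted per gene and can have several windows. The second ERSE form, ATTGG and CCACG 1 base apart, was in none of the members' windows and in 0.0365% of all.

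The PDI family extends beyond these enzymes, and 9 of 13 other members had values. Their median log2 ratio was 0.01, and 1 of 9 was at least 1.5-fold lower, Txndc11, with 2.31 FPKM in the antagomir and 4.45 FPKM in the control library and exons that overlap Snn. No other was 1.5-fold higher or lower, where 10.8% and 13.4% of all genes passed these limits. The membrane-bound members Tmx1, with 21.8 and 20.1 FPKM in the antagomir and control libraries, and Tmx2, with 34.8 and 31.5 FPKM, were close to equal. Tmx3 had 16.5 FPKM in the antagomir and 19.7 FPKM in the control library, and Tmx4 had 3.12 and 4.11 FPKM. Dnajc10, which encodes the reductase ERdj5 of the ER degradation pathway, had 48.5 FPKM in the antagomir and 45.8 FPKM in the control library. Txndc12 had 53.6 FPKM in the antagomir and 48.4 FPKM in the control library, Txndc15 had 9.13 and 9.06 FPKM, and Txndc16 had 1.88 and 2.63 FPKM.

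A list of other genes around thiol oxidation and reduction in the ER had a median log2 ratio of 0.08. It also holds genes, such as H6pd and Slc37a4, whose products do not act on disulfides themselves. Of its 15 genes that reached 1 FPKM, 3 were at least 1.5-fold lower and 2 at least 1.5-fold higher. These counts lie near the shares of 13.4% and 10.8% over all genes and say nothing particular to the list. Prdx4, a peroxiredoxin that uses the hydrogen peroxide of the ER to oxidise PDI, had 112 FPKM in the antagomir and 58.6 FPKM in the control library, 1.90-fold higher. It thus had a higher level than Ero1l in the antagomir library and a lower one in the control. Gpx8, an ER peroxidase, had 86.7 FPKM in the antagomir and 72.6 FPKM in the control library. Selenom, a selenoprotein of the ER with a thioredoxin-like fold, was 2.79-fold higher, with 82.8 FPKM in the antagomir and 29.0 FPKM in the control library. With the trend over length and GC content removed the log2 ratios of Prdx4 and Selenom were 0.65 and 1.23. Creld2, an ER stress-induced gene, was 2.72-fold lower, with 68.4 FPKM in the antagomir and 188 FPKM in the control library.

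Genes of the calnexin and calreticulin cycle, with which Pdia3 works, were listed together with the transport genes Lman1, Lman2 and Mcfd2. Of the 14 listed genes 8 were at least 1.5-fold lower and none was 1.5-fold higher. Over all genes 13.4% and 10.8% passed these limits. The median log2 ratio of the list was -0.64. Calr, the soluble lectin chaperone, had 112 FPKM in the antagomir and 422 FPKM in the control library, 3.75-fold lower. Canx, its membrane-bound counterpart, had 103 FPKM in the antagomir and 161 FPKM in the control library, 1.56-fold lower. Man1b1, a mannosidase that marks glycoproteins for degradation, had the highest log2 ratio of the list, 0.16.

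Of the genes for partners and retrieval of the enzymes, 4 of 12 were at least 1.5-fold lower and none was 1.5-fold higher, with a median of -0.33. Over all genes 13.4% and 10.8% passed these limits. With the trend over length and GC content removed, 1 of the 12 was at least 1.5-fold lower, beside 12.5% of all genes. The catalytic alpha subunits that pair with P4hb in collagen prolyl 4-hydroxylase are on this list. P4ha1 had 55.2 FPKM in the antagomir and 89.4 FPKM in the control library, 1.61-fold lower, and P4ha2 had 10.9 and 20.5 FPKM, 1.81-fold lower. P4ha3 had 2.77 FPKM in the antagomir and 1.81 FPKM in the control library. The KDEL receptors, which return soluble ER proteins from the Golgi, had log2 ratios of -0.38 for Kdelr1, -0.46 for Kdelr2 and -0.14 for Kdelr3, none past the limit.

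Chaperones of the ER lumen were at least 1.5-fold lower for 9 of 24 genes, with a median of -0.35, and 7 of these were at least 2-fold lower. Over all genes the shares were 13.4% and 3.79%. Dnajb9, the BiP cochaperone ERdj4, had 6.59 FPKM in the antagomir and 34.5 FPKM in the control library. Sdf2l1, another stress-induced member of the BiP complex, had 20.4 FPKM in the antagomir and 70.8 FPKM in the control library. Dnajb11 and Dnajc3 were each 2.10-fold lower. At the other end of the list Fkbp7, a prolyl isomerase, had 23.2 FPKM in the antagomir and 14.9 FPKM in the control library, 1.53-fold higher. With the trend over length and GC content removed its log2 ratio was 0.26, and as TPM, too, 0 genes of the list were 1.5-fold higher, against 2 with ratios centred on the median of all genes.

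Among 14 transcription factor genes of the unfolded protein and hypoxia responses, 6 were at least 1.5-fold lower and none was 1.5-fold higher. Their median was -0.52, and 13.4% and 10.8% of all genes passed these limits. Atf6 had 13.8 FPKM in the antagomir and 41.1 FPKM in the control library, 2.85-fold lower. Xbp1 had 29.1 FPKM in the antagomir and 72.7 FPKM in the control library, 2.45-fold lower. Ddit3, which encodes CHOP and overlaps exons of Mars, had 117 FPKM in the antagomir and 609 FPKM in the control library. At the upper end stood Nfyb, a subunit of NF-Y, with 9.55 FPKM in the antagomir and 9.04 FPKM in the control library. These lists share both libraries with the enzymes, so their values stand beside the enzymes' own as description.

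**Figure D4:**
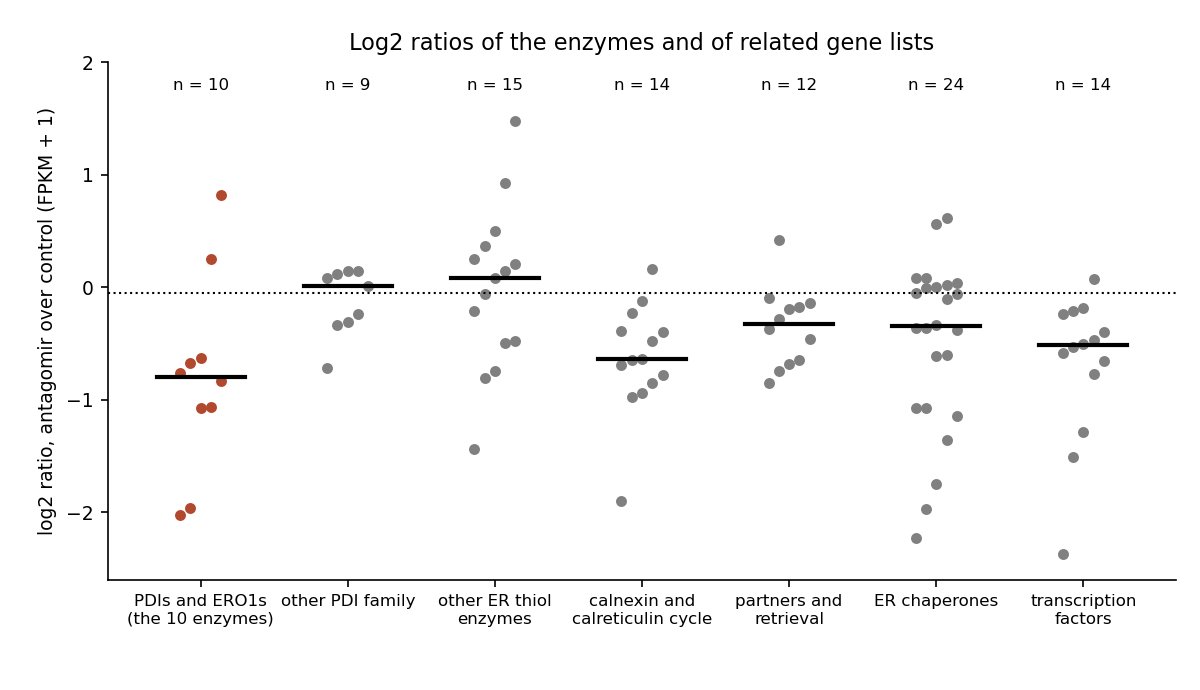
Log2 ratio of antagomir over control (vertical axis, FPKM + 1) for the 10 enzymes and for each gene of 6 related lists that reached 1 FPKM, with n genes; bars are list medians and the dotted line is the median of all genes, -0.05. The medians of the 10 enzymes and of the calnexin and calreticulin list, -0.80 and -0.64, are the lowest of the groups drawn. A list of secreted and membrane proteins with disulfide bonds, not drawn here, had a lower median, -0.90. Those of the other PDI family and of the ER thiol list lie near 0.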

How the data were processed

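The table the authors deposited gave FPKM per gene, per the file headers, for 1 library per group. Per the submitters' processing notes, cutadapt, HISAT2 and StringTie 1.3.3 were used on GRCm38. Tool settings, the annotation release and strand use were not given in the sources used here, and no whole-read steps were found in low values. Rows of the same symbol were summed, which merged 10 of 10992 rows. Log2 ratios used a pseudocount of 1, and genes needed 1 FPKM in the higher library. Limits of 1.5-fold and 2-fold were counted without a test.

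Members and lists were chosen with earlier results of these data known. Named were all members, all other PDI genes, and in each list genes at either end or past 2-fold. Chosen after their values were seen were Prdx4, Gpx8, Canx, P4ha1, the KDEL receptor genes, Col3a1, Ldha and Pgk1. Of the 2-fold genes some stand only in the counts. Exons, lengths and GC content came from GENCODE M21. Alternatives were other pseudocounts, filters and scalings, removal of a quadratic trend over length and GC content, and omission of members that share exons. Python 3.11.15, pandas 2.3.3 and numpy 2.4.6 were used. Of the steps, only the log2 ratio and the trend removal were tested on simulated data. RefSeq protein sequences were not used here.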

Additional observations from a re-analysis of the deposited data

How the results depend on the processing

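With 1 library per group no replicate could be left out. No paired analysis was possible because each group holds 1 library. Under pseudocounts of 0.1 and 0.01, no minimum or one of 5 FPKM, rescaling to TPM or without mitochondrial, hemoglobin and ribosomal protein genes, centring on the median and removal of the length and GC trend, every member kept the sign of its log2 ratio, except that Ero1lb had no value at the minimum of 5 FPKM. The range was -2.12 to -1.90 for Ero1l, -2.06 to -1.92 for Pdia4, -1.91 to -0.96 for Ero1lb and -0.72 to -0.58 for P4hb. At the minimum of 5 FPKM, 7 members were at least 1.5-fold lower and 3 at least 2-fold lower, beside 15.8% and 4.9% of all genes. With the length and GC trend removed, 3 members were at least 2-fold lower, beside 3.8% of all genes. Without the 5 members that share exons with other genes, all 5 members that remained were at least 1.5-fold lower, beside 13.4% of all genes. Of the 5, 2 were at least 2-fold lower and 0 at least 1.5-fold higher, beside 3.79% and 10.8% of all genes. With the length and GC trend removed the median of the calnexin and calreticulin list was -0.52, inside the 1.5-fold limit. That of the transcription factors was -0.61, past the limit, as it was as TPM, at -0.61. The cause was not tested. As TPM, scaled over the listed genes only and with 1 still added, 20.0% of all genes were at least 1.5-fold lower. With FPKM and a pseudocount of 0.1 the share was 17.5%. The unknown depth limits the lowest gene, Ero1lb, most.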

Other observations

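A list of genes for secreted and membrane proteins with disulfide bonds, many of them of the matrix, had lower values in the antagomir library. Disulfide content was not scored, so any link to it was not tested. Of the 25 listed genes that reached 1 FPKM, 19 passed the 1.5-fold limit and 10 also the 2-fold limit on the lower side. Over all genes the shares were 13.4% and 3.79%. None of the 25 had a log2 ratio above 0, and their median was -0.90. With the trend over length and GC content removed it was -0.77. Insr, with 0.40 FPKM in the antagomir and 1.89 FPKM in the control library, entered both counts through its control value alone. The highest log2 ratio of the list was that of Itgav, -0.21. Fn1, which encodes fibronectin and overlaps exons of Apol7d, had 92.8 FPKM in the antagomir and 414 FPKM in the control library. Lamc1, a laminin chain of basement membranes, had 6.38 FPKM in the antagomir and 23.3 FPKM in the control library, and Fbn1, the fibrillin of microfibrils, had 8.49 and 24.9 FPKM. Col3a1, the most abundant collagen of the list, had 249 FPKM in the antagomir and 358 FPKM in the control library, a log2 ratio of -0.52. Fibroblast markers summed to lower FPKM in the antagomir library too, 341 against 548 FPKM in the control, and share Col1a1, Col1a2 and Col3a1 with this list. Their part in these values was not tested.

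Genes known to respond to hypoxia, among which Ero1l is often counted, were split. Of 16 such genes 6 were at least 1.5-fold lower and 1 at least 1.5-fold higher, with a median of -0.38. Over all genes 13.4% and 10.8% passed these limits. Ak4, a mitochondrial adenylate kinase, had 1.15 FPKM in the antagomir and 10.7 FPKM in the control library. Ndrg1 had 81.5 FPKM in the antagomir and 223 FPKM in the control library, with exons that overlap Gm2895. Ankrd37, whose exons overlap those of Ufsp2, was the gene past the limit on the higher side, with 3.75 FPKM in the antagomir and 1.15 FPKM in the control library, 2.21-fold higher. The glycolytic genes Ldha, with 476 FPKM in the antagomir and 357 FPKM in the control library, and Pgk1, with 1279 and 1114 FPKM, had log2 ratios of 0.41 and 0.20.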
